A study of Homo sapiens with 6 samples.

Results

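Cardiolipin is the signature phospholipid of the inner mitochondrial membrane, and the 10 genes described here make it, remodel its acyl chains, degrade it or move it between the mitochondrial membranes. They were taken by symbol from the deposited count table of 58735 genes, where each matched 1 row, and TAZ is the gene of tafazzin in that annotation. RNA was measured in A549 cells, a human lung adenocarcinoma line labelled as alveolar epithelial. There were 3 libraries of cells exposed to paraquat (PQ) and 3 of cells exposed to PQ together with SS-31, all at 48 h. Paraquat is a redox-cycling herbicide that makes superoxide. SS-31 is a mitochondria-targeted peptide that binds cardiolipin. Every library was therefore exposed to PQ, no untreated library was analysed here, and the sources used here give no dose. The cells came from 1 line, and nothing in the labels says that replicates were separate cultures. The p-values below therefore reflect the spread of these samples alone, and that spread may be technical.

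Cardiolipin is built from phosphatidate in the matrix-facing leaflet. TAMM41 makes CDP-diacylglycerol, PGS1 joins it to glycerol phosphate in the committed step, PTPMT1 removes the phosphate from phosphatidylglycerol phosphate, and CRLS1 adds the second phosphatidyl group. The new lipid is then remodelled: phospholipases such as PNPLA8 and PLA2G6 take acyl chains off, and the transacylase TAZ, whose loss causes Barth syndrome, and the acyltransferase LCLAT1 put chains back. HADHA, the alpha subunit of the trifunctional protein of fatty acid oxidation, also has monolysocardiolipin acyltransferase activity. PLSCR3 is a phospholipid scramblase that carries cardiolipin to the outer membrane. Transcript levels are described here; lipids, proteins and enzyme activities were not measured.

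Total counts per library ranged from 16332061 to 17576827, and levels are given as CPM, counts relative to these totals after TMM scaling between libraries. Principal component 1, which held 39.4% of the variance, ran within the groups: PQ replicates 1 and 2 had negative scores with PQ+SS-31 replicate 2, and the remaining 3 libraries had positive ones. Component 2, with 23.5%, separated the groups, with PQ at 13.2 to 22.6 and PQ+SS-31 at -21.3 to -10.3. Of the 5 epithelial markers, KRT8 and KRT18, keratins of simple epithelia, ranged from 1192 to 2077 CPM and from 399 to 608 CPM, KRT19 and CDH1 from 11.7 to 27.5 CPM, and EPCAM from 0.443 to 0.814 CPM. Of 8 type 2 alveolar markers, the lipid transporter ABCA3 was at 91.6 to 132 CPM, the transcript of surfactant protein C (SFTPC) at 0.0594 CPM or less, and SLC34A2 and NKX2-1 at 0 counts in every library. Of 6 type 1 markers, CAV1 was at 599 to 662 CPM, and AQP5, HOPX and CLIC5 were at 0 counts in every library. Summed markers of leukocytes (4 genes) reached 0.408 CPM at most and those of endothelium (3 genes) 0.653 CPM, while those of stroma (4 genes) were at 10.1 to 17.7 CPM with PQ and 12.4 to 21.3 CPM with PQ+SS-31. Summed epithelial markers were higher with PQ+SS-31, at 2306 to 2681 CPM against 1637 to 1889 CPM. KRT8 and KRT18 made up most of this sum, and the part of this difference in the results below was not tested. In bulk samples, fewer cells of a kind and less RNA per cell cannot be told apart.

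The 2 groups were compared to ask whether SS-31 went with different transcript levels of the enzymes that handle its target lipid. In all, 0 of the 9 tested cardiolipin genes passed in either direction by edgeR's quasi-likelihood test, where passing means a p under 0.05 after Benjamini-Hochberg adjustment over all tested genes. Over all 15550 tested genes 0.592% passed, 0.129% higher and 0.463% lower. With an unadjusted p under 0.05 there was 1 higher and 1 lower cardiolipin gene, beside 11.6% of all tested genes in either direction. DESeq2 called 0 of the 9, where it called 2.4% of 13740 genes with an adjusted p (0.895% higher and 1.51% lower), and limma-voom also called 0 of the 9. The median log2 fold change of the 9 was 0.03, with 5 positive and 4 negative, against 2e-04 over all tested genes. PLSCR3 did not pass the filter on low counts and was not among the 9. The 3 PQ libraries lay wholly apart from the 3 PQ+SS-31 libraries in 2 of the 9, PNPLA8 and PLA2G6. Groups were apart in 18% of all tested genes (9.16% higher and 8.86% lower), and 2 of 9 is close to that share.

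**Figure D1:**
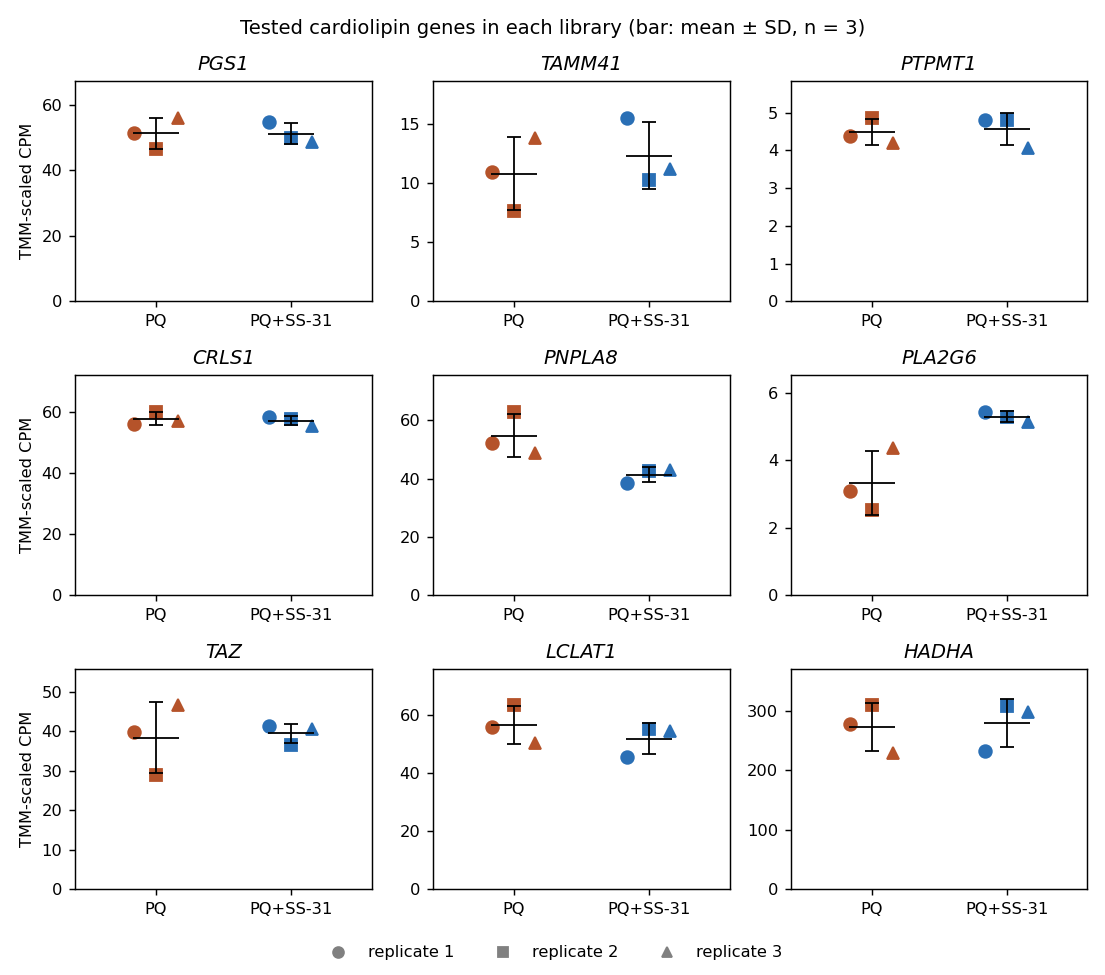
TMM-scaled CPM (vertical axis, from 0) of the 9 tested cardiolipin genes in the PQ and PQ+SS-31 libraries; symbols are replicates and bars the mean ± SD of 3. CRLS1 stays between 55.3 and 60.0 CPM, while the groups are apart for PNPLA8 and PLA2G6.

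Of the 4 genes of synthesis, 3 varied within each group by a coefficient of variation of at most 9.35%, and TAMM41 varied more. CRLS1, the cardiolipin synthase (ENSG00000088766, chromosome 20, 6006090 to 6040053, GRCh38), stood at 55.9, 60.0 and 56.9 CPM in PQ replicates 1 to 3 and at 58.1, 57.7 and 55.3 CPM in the corresponding PQ+SS-31 libraries. The groups overlapped, and the highest library was only 1.08 times the lowest. The log2 fold change was -0.02 ± 0.08 (SE), with a 95% interval from -0.20 to 0.17, so these data bound a fold between 0.872 and 1.12 (edgeR adjusted p = 0.974). CRLS1 varied between replicates about as much as counting alone gives: the coefficient of variation was 3.66% in PQ and 2.63% in PQ+SS-31, and the counting error of its mean count is 3.22%.

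PGS1, the phosphatidylglycerophosphate synthase (chromosome 17, 78378640 to 78425114), stood at 51.4, 46.5 and 56.1 CPM with PQ and at 54.8, 49.9 and 48.8 CPM with PQ+SS-31. The groups overlapped and their means were 51.3 ± 4.80 and 51.2 ± 3.19 CPM (SD, n = 3), with an interval of the log2 fold change from -0.23 to 0.22 (edgeR adjusted p = 0.997). TAMM41, the mitochondrial CDP-diacylglycerol synthase (chromosome 3, 11790442 to 11846919), was at 10.9, 7.65 and 13.8 CPM with PQ and at 15.5, 10.3 and 11.2 CPM with PQ+SS-31. It was the least steady of the synthesis genes, with a coefficient of variation of 28.5% in PQ and 22.7% in PQ+SS-31 where counting gives 7.15%. Its interval, from -0.34 to 0.72 on the log2 scale, reaches a level 1.64-fold higher (log2 fold change 0.19 ± 0.23, SE; edgeR adjusted p = 0.845).

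PTPMT1, the phosphatase between PGS1 and CRLS1 (chromosome 11, 47565430 to 47573461), had 70 to 83 counts per library. Its levels were 4.39, 4.87 and 4.19 CPM with PQ and 4.80, 4.81 and 4.08 CPM with PQ+SS-31, and the groups overlapped. Replicates spread by 7.80% and 9.25%, no more than the 11.5% that counting alone gives. Of the 2740 exonic bases of PTPMT1 in GENCODE 29, 72.5% are also exonic in another gene, 1265 of them in KBTBD4 on the other strand, 721 in NDUFS3 on the same strand and 140 in CELF1 on the other strand. The sources used here do not say how reads overlapping several genes were counted or whether strand was used, so the level of PTPMT1 is uncertain.

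Of the enzymes that remove acyl chains, PNPLA8 was lower and PLA2G6 higher with SS-31, and neither passed. PNPLA8, the calcium-independent phospholipase A2 gamma of mitochondria and peroxisomes (ENSG00000135241, chromosome 7, 108470422 to 108569666), stood at 52.4, 63.0 and 48.7 CPM with PQ and at 38.4, 42.5 and 43.1 CPM with PQ+SS-31. Every PQ+SS-31 library lay below every PQ library. The means were 54.7 ± 7.45 and 41.3 ± 2.55 CPM (SD, n = 3), and the log2 fold change was -0.40 ± 0.11 (SE, 95% interval from -0.66 to -0.15). It did not pass over all genes (unadjusted p = 0.00616, edgeR adjusted p = 0.196), and it passed without PQ replicate 3 (log2 fold change -0.49, edgeR adjusted p = 0.0428, in a range of 0.0428 to 0.536 over the 15 alternatives). Without PQ replicate 3, 2.07% of all tested genes passed, 0.79% higher and 1.28% lower. Without PQ replicate 2, the highest library, the log2 fold change was -0.29.

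PLA2G6, the calcium-independent phospholipase A2 beta (ENSG00000184381, chromosome 22, 38111495 to 38205690), had 40 to 94 counts per library. It stood at 3.08, 2.53 and 4.36 CPM with PQ and at 5.44, 5.29 and 5.12 CPM with PQ+SS-31. Every PQ+SS-31 library lay above every PQ library, and the PQ+SS-31 libraries were much closer to each other (coefficient of variation 2.99%, below the counting error of 11.7%) than the PQ libraries (28.3%). The log2 fold change was 0.66 ± 0.23 (SE, 95% interval from 0.15 to 1.18), without passing over all genes (unadjusted p = 0.0170, edgeR adjusted p = 0.289, in a range of 0.0576 to 0.678 over the 15 alternatives). Of its 6758 exonic bases, 22.5% are also exonic in the antisense gene AL022322.2, which had 0 to 2 counts per library.

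**Figure D2:**
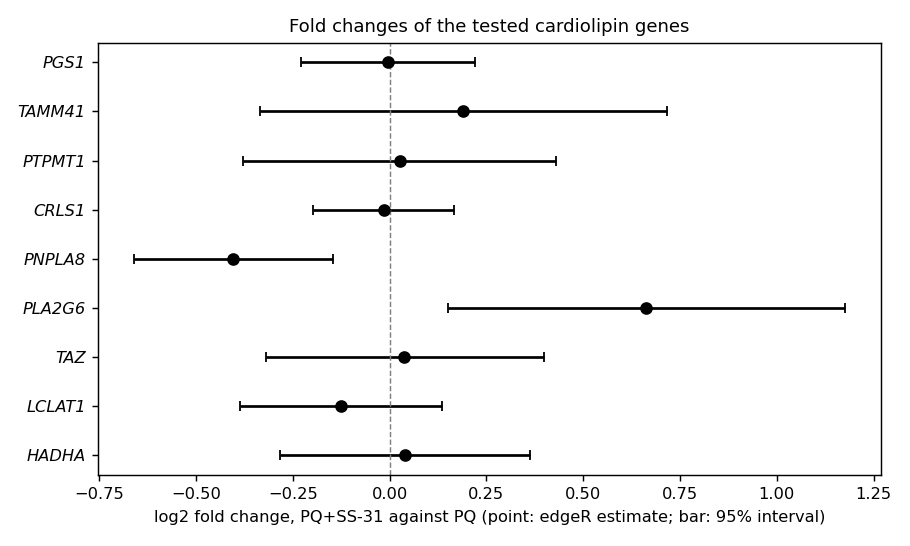
Log2 fold changes of PQ+SS-31 against PQ (horizontal axis) for the 9 tested cardiolipin genes, as edgeR estimates with 95% intervals that are not adjusted for the number of genes. The intervals of PNPLA8 (-0.66 to -0.15) and PLA2G6 (0.15 to 1.18) lie off 0, and the other 7 include it.

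PNPLA8 and PLA2G6 also stand at the ends of the base composition of the tested members: the longest transcript of PNPLA8 has 36.5% GC and that of PLA2G6 61.0%, against a median of 48.7% over tested genes. Tested genes of at most 38.6% GC had a median log2 fold change of -0.03, and those of at least 61.7% GC one of 0.04. With offsets for GC content and length, an alternative added after the data were seen, the log2 fold change was -0.37 for PNPLA8 (edgeR adjusted p = 0.0657) and 0.64 for PLA2G6 (edgeR adjusted p = 0.178), close to the values without them. Neither passed, where 1.58% of all tested genes did (0.559% higher and 1.02% lower).

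The sequences before the starts of these phospholipase genes are shown because they are the members whose groups lay apart. They are the 250 bases before each RefSeq start (GRCh38.p14), 5′ to 3′ on the strand of the gene, with matches to a set of 7 motifs in capitals, searched on both strands: CCAAT, the GC box GGGCGG, the E-box CACGTG, the NRF1 motif (GCGC, then N, then TGCGC, in 1 run), the ERR element TCAAGGTCA, the antioxidant element core TGACNNNGC and the AP-1 motif TGANTCA. RefSeq gives PNPLA8 2 starts, with windows at chr7:108526136-108526385 and chr7:108528179-108528428 on the minus strand, and PLA2G6 1 window at chr22:38181831-38182080 on the minus strand. These windows lie inside the gene spans given above, which begin upstream of these RefSeq starts.
PNPLA8, chr7:108526136-108526385: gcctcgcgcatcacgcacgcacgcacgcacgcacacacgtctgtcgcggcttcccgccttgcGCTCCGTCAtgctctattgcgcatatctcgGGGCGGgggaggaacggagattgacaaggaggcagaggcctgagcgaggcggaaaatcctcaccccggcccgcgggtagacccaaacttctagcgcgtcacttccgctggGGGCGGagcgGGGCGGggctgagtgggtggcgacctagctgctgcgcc
PNPLA8, chr7:108528179-108528428: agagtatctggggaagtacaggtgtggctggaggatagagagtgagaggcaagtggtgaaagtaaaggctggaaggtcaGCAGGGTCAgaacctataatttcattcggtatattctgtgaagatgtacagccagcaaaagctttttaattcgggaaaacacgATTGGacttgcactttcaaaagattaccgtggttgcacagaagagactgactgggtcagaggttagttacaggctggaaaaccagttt
PLA2G6, chr22:38181831-38182080: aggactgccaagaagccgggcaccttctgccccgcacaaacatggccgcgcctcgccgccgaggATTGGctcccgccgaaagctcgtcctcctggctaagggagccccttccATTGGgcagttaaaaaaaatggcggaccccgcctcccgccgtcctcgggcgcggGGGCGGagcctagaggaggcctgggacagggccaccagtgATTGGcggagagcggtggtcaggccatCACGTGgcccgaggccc
The PLA2G6 window holds 3 CCAAT boxes, beginning 186, 138 and 44 bases before the start, with 1 GC box and 1 E-box. The first PNPLA8 window holds 3 GC boxes and 1 antioxidant element core, and the other holds 1 CCAAT box and 1 antioxidant element core. At least 1 match is found in 32.0% of all 35116 windows of this length for CCAAT, 42.6% for the GC box, 6.34% for the E-box and 10.9% for the antioxidant element core. Windows were matched for 9 of the 10 cardiolipin genes. The ERR element, AP-1 motif and NRF1 motif are in 0.319%, 6.57% and 5.07% of all windows, and of the 11 windows of these 9 genes and HADHB, 0 hold the first, 0 the second and 1 the third, that of PGS1. A match is a run of letters and not a measured binding site.

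Among the enzymes that put acyl chains back, no difference between the groups was detected. TAZ, the tafazzin gene (ENSG00000102125, chromosome X, 154411518 to 154421726), stood at 39.7, 28.9 and 46.6 CPM with PQ and at 41.3, 36.6 and 40.5 CPM with PQ+SS-31. All 3 PQ+SS-31 libraries lay inside the range of the PQ libraries, which spread by 23.2% where counting gives 3.90%. The log2 fold change was 0.04 ± 0.16 (SE), with an interval from -0.32 to 0.40 (edgeR adjusted p = 0.967). LCLAT1, the acyltransferase also called ALCAT1 (chromosome 2, 30447226 to 30644225), stood at 55.8, 63.3 and 50.4 CPM with PQ and at 45.7, 55.2 and 54.5 CPM with PQ+SS-31. The groups overlapped, with a log2 fold change of -0.13 ± 0.12 (SE, interval from -0.39 to 0.14, edgeR adjusted p = 0.766). It was -0.04 when PQ replicate 2 or PQ+SS-31 replicate 1 was left out and -0.21 when PQ replicate 3 was, and it passed in 0 of the 15 alternatives.

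HADHA (ENSG00000084754, chromosome 2, 26190635 to 26244726) was by far the most abundant member. It stood at 279, 310 and 229 CPM with PQ and at 233, 310 and 298 CPM with PQ+SS-31. Its low libraries were PQ replicate 3 and PQ+SS-31 replicate 1, 1 in each group, and the log2 fold change was 0.04 ± 0.14 (SE, interval from -0.28 to 0.36, edgeR adjusted p = 0.961). HADHB, which encodes the beta subunit of the same enzyme complex, did not follow this pattern: it stood at 134, 141 and 144 CPM with PQ and at 136, 135 and 133 CPM with PQ+SS-31. HADHA spread by 14.9% and 14.7% within the groups and HADHB by 3.56% and 1.26%, where counting gives 1.47% and 2.08%. Per length, the ratio of HADHA to HADHB was 2.03, 2.15 and 1.55 with PQ and 1.67, 2.24 and 2.19 with PQ+SS-31.

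**Figure D3:**
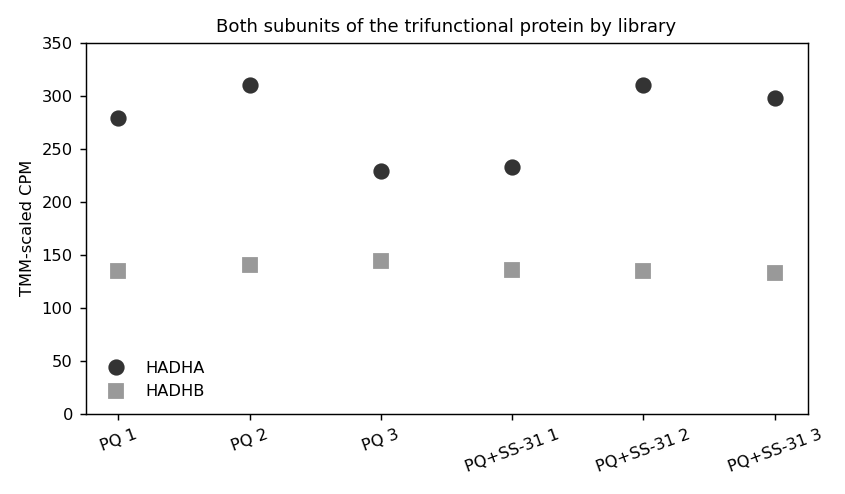
TMM-scaled CPM (vertical axis, from 0) of HADHA (circles) and HADHB (squares) in each of the 6 libraries. HADHA is at 229 and 233 CPM in PQ replicate 3 and PQ+SS-31 replicate 1 and at 279 to 310 CPM elsewhere, and HADHB stays between 133 and 144 CPM.

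HADHA and HADHB are transcribed away from each other, and their RefSeq starts are 307 bases apart. Most of the sequence between them is shown because, by these RefSeq starts, both genes have it upstream while their transcripts differed in spread. It is the 250 bases before the HADHA start, at chr2:26244633-26244882 on the minus strand (GRCh38.p14), with capitals for the 194 bases that also lie in the 250 bases before the HADHB start.
HADHA, chr2:26244633-26244882: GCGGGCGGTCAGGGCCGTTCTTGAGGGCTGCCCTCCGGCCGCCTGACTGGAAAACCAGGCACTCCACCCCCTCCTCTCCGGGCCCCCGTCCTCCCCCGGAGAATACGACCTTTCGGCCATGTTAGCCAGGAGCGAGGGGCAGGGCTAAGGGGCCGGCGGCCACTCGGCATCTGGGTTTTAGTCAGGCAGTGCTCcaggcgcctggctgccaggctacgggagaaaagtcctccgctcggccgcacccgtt
The shared stretch runs from 26244689 to 26244882, and in GENCODE 29 the 2 genes share no exonic base. Their GENCODE 29 spans do overlap, as HADHA reaches to 26244726 and HADHB begins at 26243170. The window shown therefore lies inside the HADHB span and partly inside that of HADHA.

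PLSCR3, the scramblase of the transfer step (ENSG00000187838, chromosome 17, 7389727 to 7394843), had 5, 1 and 2 counts with PQ and 2, 2 and 7 with PQ+SS-31. With no filter on low counts its log2 fold change was 0.40 ± 1.01 (SE, edgeR adjusted p = 0.929), and a difference was not detectable at this depth. Of its 2834 exonic bases, 76.6% are also exonic in another gene, 2163 of them in the readthrough gene TMEM256-PLSCR3 on the same strand. That gene had 8, 2 and 1 counts with PQ and 2, 1 and 0 with PQ+SS-31. As with PTPMT1, the treatment of reads in shared exons is not given, so the level of PLSCR3 is uncertain and its count is no measure of absence.

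Levels of different genes were compared per length, as TMM-scaled CPM per kilobase of the deposited gene length over the 6 libraries. HADHA led with 63.1 ± 8.40 CPM per kilobase (SD, n = 6). CRLS1 at 10.7 ± 0.311 and PGS1 at 10.3 ± 0.734 followed, and their ranges overlapped. PNPLA8 (8.47 ± 1.56), TAZ (8.24 ± 1.25) and LCLAT1 (7.21 ± 0.787) came next, with ranges that overlapped from each to its neighbour. TAMM41 (1.95 ± 0.465) and PTPMT1 (1.65 ± 0.127) also overlapped, below LCLAT1 in all 6 libraries, and PLA2G6 (0.637 ± 0.182) lay below both. The level of PLSCR3 per length was 0.0658 ± 0.0475. Levels were also divided by the exonic bases that no other gene shares, a choice made after seeing the data. This assumes that no read in a shared exon was counted, on either strand, which the sources used here do not state. The mean level of PTPMT1 was then 6.00 CPM per kilobase and above TAMM41, that of PLA2G6 was 0.821 and that of PLSCR3 0.281. PTPMT1 and PLSCR3 moved by more than 1.5 times. PLA2G6 moved by less than that but by more than 1 SD of its level, and the other 7 genes stayed within 1 SD.

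**Figure D4:**
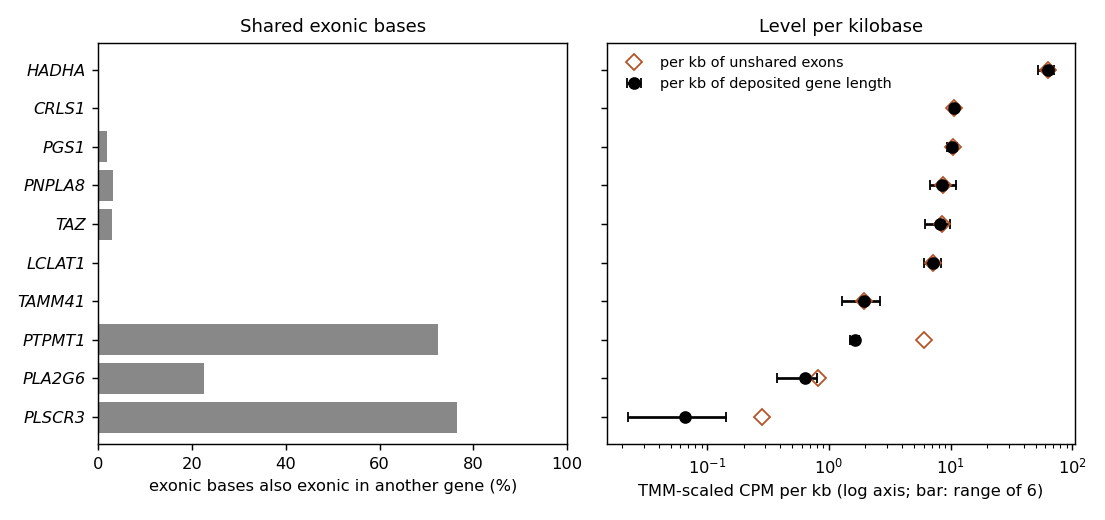
Left, the share of each gene's exonic bases that is also exonic in another gene (%, GENCODE 29); right, TMM-scaled CPM per kilobase on a log axis, with the mean and range of 6 libraries per deposited gene length (black) and the mean per unshared exonic kilobase (open diamonds). PTPMT1 and PLSCR3 have 72.5% and 76.6% shared exonic bases, and their level depends most on the length used.

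Except in PNPLA8 and PLA2G6, most of the variation of the tested members ran between libraries of the same group. The difference between the group means held 72.4% of the sum of squares of log2 CPM for PNPLA8 and 70.1% for PLA2G6. It held 18.7% for LCLAT1, 10.5% for TAMM41 and at most 3.85% for the other 5. The same share over all tested genes was not computed, so these values are not read as a trait of the members. PQ replicate 2 was the highest or lowest of the 6 libraries in all 9 tested members. It was highest in 5 (CRLS1, PTPMT1, LCLAT1, PNPLA8 and HADHA) and lowest in 4 (PGS1, TAMM41, TAZ and PLA2G6). Over all tested genes this library was at an extreme in 43%, PQ replicate 3 in 45.1% and PQ replicate 1 in 22.4%. PQ replicate 3 was at an extreme in 3 members and PQ replicate 1 in 0.

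PQ replicates 2 and 3 lie at opposite ends of the first principal component. From PQ replicate 2 to PQ replicate 3, the deviation from the gene's mean went from -0.41 to 0.27 for TAZ and from -0.55 to 0.29 for TAMM41 on the log2 scale, and from 0.41 to 0.04 for PNPLA8 and 0.18 to -0.26 for HADHA. NEAT1, a nuclear long non-coding RNA, moved along the same component, with 152 CPM in PQ replicate 2 and 884 CPM in PQ replicate 3. Base composition moved with it too: the tested genes of at most 38.6% GC had a median deviation of 0.10 in PQ replicate 2 and -0.06 in PQ replicate 3, and those of at least 61.7% GC -0.13 and 0.10. TAMM41, with 41.1% GC, went with the GC-rich members TAZ (56.4%), PGS1 (54.4%) and PLA2G6 (61.0%). The part of NEAT1 or base composition in the members' pattern was not tested.

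**Figure D5:**
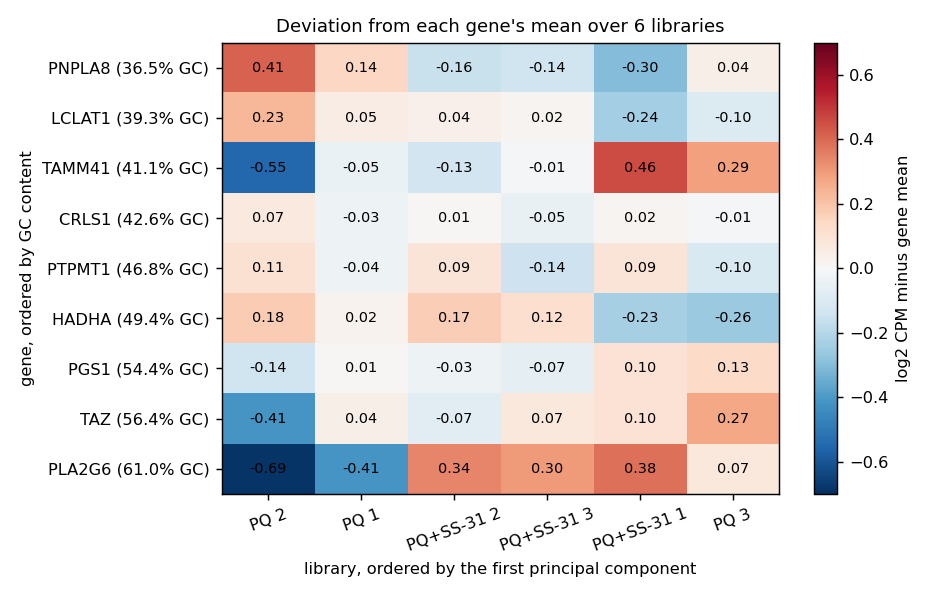
Deviation of log2 CPM from each gene's mean over the 6 libraries (colour and printed value) for the 9 tested cardiolipin genes, in rows by GC content of the longest transcript, with libraries in columns by the first principal component. PQ replicate 2, at the left, holds the highest or lowest value of every row.

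Ratios within a library do not depend on its scaling. Of these, 3 were compared between the groups with a two-sided exact permutation test over samples, which with 3 against 3 cannot go below p = 0.1. The ratio of TAZ to PNPLA8, an enzyme of reacylation against one of deacylation, was 0.910, 0.550 and 1.15 with PQ and 1.29, 1.03 and 1.13 with PQ+SS-31 per length. The groups overlapped through PQ replicate 3 (difference 0.46 on the log2 scale, exact permutation p = 0.3, adjusted over the 3 ratios 0.75). Without PQ replicate 2 the difference was 0.16. The ratio of CRLS1 to PGS1, the last against the committed step, differed by -0.01 (exact permutation p = 0.9, adjusted 0.9), and that of HADHA to HADHB by 0.09 (exact permutation p = 0.5, adjusted 0.75).

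The genes whose pattern over the 6 libraries was most like that of CRLS1 were CFAP36, AASDHPPT and MTERF1, with a root mean square distance between z-scored log2 CPM of 0.129, 0.244 and 0.253, out of 10881 protein-coding genes with a mean CPM of 5 or more. Of the other members, PTPMT1 was nearest, at 0.520, and TAZ farthest, at 1.68. As given above, replicates of CRLS1 spread by about the counting error.

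Genes around the pathway were given as 5 lists, and edgeR called 0 of their tested members. Of 16 genes that supply phosphatidate and CDP-diacylglycerol, 15 were tested, with a median log2 fold change of 0.02. The groups lay apart in 3 of the 15, all lower, where 8.86% of all tested genes were apart lower and 9.16% higher. An unadjusted p under 0.05 was found for 1 gene, which was lower, beside 11.6% of all tested genes in either direction. That gene was GPAT3, a glycerol-3-phosphate acyltransferase of the endoplasmic reticulum, which stood at 29.7, 26.6 and 30.6 CPM with PQ and at 21.0, 21.1 and 20.9 CPM with PQ+SS-31. Every PQ+SS-31 library was lower (log2 fold change -0.46 ± 0.10, SE, edgeR adjusted p = 0.0981), and the gene passed by DESeq2 (adjusted p = 0.0207) and with no filter on low counts (edgeR adjusted p = 0.0455), in a range of 0.0207 to 0.435 over the 15 alternatives. AGPAT1, which makes phosphatidate from its lyso form, was at 42.1, 40.8 and 43.6 CPM with PQ and at 43.3, 48.3 and 51.2 CPM with PQ+SS-31, overlapping, and did not pass (edgeR adjusted p = 0.538).

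Of 11 partners in cardiolipin turnover and signalling, all tested, the median log2 fold change was -0.01. An unadjusted p under 0.05 was found for 3, 1 higher and 2 lower, where 11.6% of all tested genes had one in either direction. The groups lay apart in 1 gene higher and 2 lower, where 9.16% of all tested genes were apart higher and 8.86% lower. PLD6, a mitochondrial phospholipase D that hydrolyses cardiolipin to phosphatidate, stood at 19.3, 17.9 and 18.7 CPM with PQ and at 12.4, 14.3 and 13.5 CPM with PQ+SS-31. Its groups lay apart (log2 fold change -0.48 ± 0.11, SE, edgeR adjusted p = 0.125, in a range of 0.0519 to 0.498 over the 15 alternatives). MAP1LC3B, the autophagy protein LC3B, which binds cardiolipin exposed on the outer membrane, stood at 106, 98.0 and 109 CPM with PQ and at 83.7, 72.7 and 82.5 CPM with PQ+SS-31. It did not pass by edgeR (log2 fold change -0.39 ± 0.09, SE, adjusted p = 0.123), and passed by DESeq2 (adjusted p = 0.0233). It also passed with offsets for GC content and length (edgeR adjusted p = 0.0318) and with these offsets and the replicate block together (0.0230). With the replicate block alone MAP1LC3B did not pass (edgeR adjusted p = 0.0561), and the range over the 15 alternatives was 0.0230 to 0.486. HADHB, also in this list, had a log2 fold change of -0.05 ± 0.08 (SE).

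In the list named for lipid transfer into mitochondria and phosphatidylethanolamine synthesis, 12 of 12 genes were tested, with a median of -0.03. Its lowest log2 fold change was -0.59. The groups lay apart in 1 gene, TRIAP1, which was lower, where 8.86% of all tested genes were apart lower. This list had 0 genes with an unadjusted p under 0.05, beside 11.6% of all tested genes in either direction. Its smallest p-values were those of PITPNM1, a phosphatidylinositol transfer protein, at 81.8 ± 3.63 and 93.7 ± 9.73 CPM, and TRIAP1, which with PRELI proteins carries phosphatidate to the inner membrane, at 86.0 ± 3.76 and 76.9 ± 4.26 CPM (SD, n = 3; edgeR adjusted p = 0.505 and 0.518). Among 15 genes of the MICOS complex and cristae, which shape the membrane that cardiolipin fills, 0 had an unadjusted p under 0.05, beside the same 11.6%. The median was 0.10, with 11 positive, where 7784 of all 15550 tested genes were positive. OMA1, a stress-activated inner-membrane protease, was at 9.01 ± 1.21 and 10.9 ± 1.23 CPM, and IMMT, the MICOS subunit mitofilin, at 163 ± 13.3 and 184 ± 16.7 CPM. In the list named for the scaffold of prohibitins and stomatin-like proteins, which also holds other genes, all 6 were tested and the median was 0.06. In it 0 genes had an unadjusted p under 0.05, beside the same 11.6%. The groups lay apart in 0 genes of this list and in 0 of the MICOS and cristae list. SPG7 was at 104 ± 20.8 and 116 ± 4.95 CPM, and PHB at 106 ± 1.62 and 112 ± 10.3 CPM. DESeq2 called 1 gene in the supply list and 1 in the turnover list, both lower, and 0 in the other 3 lists, where it called 2.4% of all genes with an adjusted p, and limma-voom called 0 in all 5.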

How the data were processed

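The values are whole-number counts per gene, deposited by the authors in a single table. The submitters' processing notes name HISAT2 2.0.5, CASAVA, DESeq2 1.20.0 and featureCounts 1.5.0-p3, with no order. Those notes name mm10, but the IDs are human, and 58724 of 58735 match GENCODE 29 (GRCh38) in start, end and strand. Strand handling and the treatment of overlapping genes are not stated. The gene length used per kilobase is the authors' deposited value.

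Columns were matched to samples by group letter and replicate number, and 0 were left out. Genes were filtered with filterByExpr (15550 kept) and scaled by TMM. The 2 groups were fitted in edgeR 4.0.16 (R 4.3.3) and tested by its quasi-likelihood method without covariates, with Benjamini-Hochberg adjustment over all tested genes and a threshold of 0.05. SEs come from the test statistic and 95% intervals from the t distribution. Log2 CPM used a prior count of 2. The alternatives were RLE factors, library size alone, no filter, 1 CPM in 3 libraries, a replicate block, DESeq2 1.42.0, limma-voom (limma 3.58.1), leaving out each library, and GC and length offsets (loess, span 0.5; 15541 genes had both). Replicates differed by more than sampling noise (chi-square per degree of freedom 6.88 to 32.2), so all 6 counted. The named genes are the 10 members, the 2 genes with the smallest p in each list, HADHB, and the 3 genes most like CRLS1. Markers, NEAT1 and the genes that overlap members were added outside this rule, NEAT1 and the overlapping genes after their values were seen. The members and lists were chosen with earlier results of these data known.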

Additional observations from a re-analysis of the deposited data

How the results depend on the processing

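Under the 15 alternatives, 0 of the 9 tested cardiolipin genes passed, except PNPLA8 without PQ replicate 3, so refits without 1 library called 0 to 1 lower. The median log2 fold change of the 9 ranged from -0.026 to 0.018 in those refits. Over all genes, the refit without PQ replicate 3 gave 125 higher and 203 lower genes. The other refits without 1 library gave 0 higher and 0 to 10 lower genes. Those refits could therefore hardly call a cardiolipin gene, and their 0 calls say little about the members. Library size alone gave 13 higher, no filter 156 higher and 237 lower, DESeq2 123 and 207, GC and length offsets 87 and 158, and these offsets with the replicate block 134 and 215. The cause of these changes was not tested. The replicate block alone gave 66 higher and 134 lower and called 0 cardiolipin genes. Same-numbered libraries had correlations of deviations of -0.09, 0.39 and 0.19, and differently numbered ones had correlations from -0.46 to 0.29. These values do not settle whether the numbers pair the libraries, and the main fit did not pair them.

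Among the lists, no filter called 1 lower gene of phosphatidate supply and 1 higher relative of the members, DESeq2 1 lower gene of supply and 1 of turnover, the offsets 1 lower gene of turnover, and the offsets with the block 1 lower gene of turnover and 1 higher relative. Refits without 1 library called 0 to 2 higher relatives, and the 2 came without PQ replicate 3, where 0.79% of all tested genes were higher. Over all genes, DESeq2 called 1.51% lower and the offsets 1.02% lower, against 0.463% lower in the main fit. The offsets with the block called 134 higher and 215 lower of the 15550 genes, against 20 and 72 in the main fit. No filter called 156 higher and 237 lower genes out of a larger number of genes. Its share of genes called was not computed, so these counts cannot be set against those of the main fit.

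In refits without 1 library, signs near 0 changed for every gene named next except LCLAT1. The log2 fold changes ranged from -0.035 to 0.015 for CRLS1, -0.070 to 0.059 for PGS1, -0.026 to 0.10 for PTPMT1, -0.0077 to 0.40 for TAMM41, -0.13 to 0.20 for TAZ, -0.21 to -0.036 for LCLAT1 and -0.077 to 0.16 for HADHA. CRLS1 was at 0.0105 with the offsets and at 0.01 with the offsets and the block. The ratio differences ranged from -0.050 to 0.23 for HADHA to HADHB and from -0.088 to 0.085 for CRLS1 to PGS1. Counts of 40 to 94 for PLA2G6 and 70 to 83 for PTPMT1 limit what can be seen in them.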

Other observations

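Relatives of the cardiolipin genes were a list of 25 phospholipases, scramblases, acyltransferases and beta-oxidation enzymes, of which 23 were tested. Their median log2 fold change was 0.11, with 19 positive, where 7784 of all tested genes were positive and 7766 negative. The groups lay apart in 5 of the 23, all higher, where 9.16% of all tested genes were apart higher and 8.86% lower. By edgeR 0 passed, and an unadjusted p under 0.05 was found for 3 genes, all higher, beside 11.6% of all tested genes in either direction; DESeq2 and limma-voom called 0. PLSCR4, a scramblase related to PLSCR3, stood at 9.49, 9.67 and 13.3 CPM with PQ and at 16.4, 14.1 and 18.2 CPM with PQ+SS-31. Its groups lay apart (log2 fold change 0.58 ± 0.17, SE, edgeR adjusted p = 0.206), and it passed without PQ replicate 3 (adjusted p = 0.0277), with no filter on low counts (0.0313) and with the GC and length offsets and the replicate block together (0.0438), in a range of 0.0277 to 0.604. PLA2G4A, the cytosolic phospholipase A2 that releases arachidonate, stood at 27.1, 29.2 and 27.6 CPM with PQ and at 34.1, 34.6 and 32.3 CPM with PQ+SS-31, also apart, without passing (edgeR adjusted p = 0.275).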
